A study of Homo sapiens with 8 samples.

Results

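Genes for 9 enzymes that make deoxynucleotides, the building blocks of DNA, were taken from the RNA sequencing of EA.hy926 cells by their symbols, and all 9 of them (of 27946 genes in the table) were measured and tested. They are RRM1, RRM2, RRM2B, TYMS, TK1, DUT, DCTPP1, DCK and DTYMK. EA.hy926 is an immortalized line, a hybrid of umbilical vein endothelial cells and lung carcinoma cells. All 8 libraries came from this line, grown in the same serum-containing medium with no treatment named beyond those given below. The 3 ΔE2 libraries came from cells in which E2, an endothelial enhancer within a super-enhancer on chromosome 16, was deleted with CRISPR/Cas9. In the 3 ΔSE12313-b libraries another element of that super-enhancer was deleted, which was inactive in reporter assays and served as the study's negative control for E2. Each of these 6 libraries is a separate clonal line, and the 2 control libraries carry neither deletion. The labels do not describe the controls as clonal, nor as separate cultures. In the paper, control cells of the proliferation assay were transfected with guide RNAs and kept in culture alongside the clones. The paper does not say whether the control libraries came from these cells. Hence deletion, derivation from single cells and any difference in guide RNA or Cas9 exposure cannot be told apart when clones are set against control. The p values measure the spread between these libraries only. The question behind the comparisons was which genes respond to loss of E2 and whether loss of the inactive neighbour differs from it.

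A cell makes its deoxynucleotides mainly by reducing ribonucleotides with ribonucleotide reductase, which is built from a large subunit (RRM1) and a small subunit (RRM2 or RRM2B). Thymidylate, which RNA does not need, comes either from methylation of deoxyuridylate by thymidylate synthase (TYMS) or from salvage of thymidine by thymidine kinase (TK1). Further kinases raise the products towards triphosphates, and pyrophosphatases remove dUTP and modified dCTP before they enter DNA. The genes for RRM2 and TK1 are well known to be expressed mainly in dividing cells around S phase, whereas RRM2B is known as a target of p53 that serves resting cells and the copying and repair of mitochondrial and nuclear DNA.

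Expression was measured as FPKM, the reads per kilobase of transcript scaled to the reads of the library, so that levels of different genes can be compared. Each library held between 12067558 and 19101152 reads, as the steps between FPKM values show. Differentially expressed genes (DEGs) were those past 2-fold with adjusted p below 0.05 in limma's fit to log2(FPKM + 0.1) with Benjamini-Hochberg adjustment over the 13790 genes that passed a filter on low values. The spread between the controls was close to counting noise (chi-square per degree of freedom 1.19). It reached 4.0 to 20.7 between ΔE2 clones, with replicate 2 apart from the others, and 8.3 to 22.8 between ΔSE12313-b clones, with replicate 3 apart. Endothelial origin was checked with 12 markers, of which 8 (CDH5, ENG, ERG, FLT1, PECAM1, ROBO4, TEK and TIE1) had an FPKM of at least 0.5 in every library, while CLDN5 was at 0 in all of them. VWF had 2.02 and 1.83 FPKM in the controls and 0.346 to 0.831 in the clones. KDR was at most 0.292 in any library. EMCN was at 0.333 and 0.371 in the controls, 0 to 0.16 in ΔE2 and 0.671 to 1.58 in ΔSE12313-b. The summed FPKM of the 12 markers was 361 to 363 in the control, 366 to 538 in ΔE2 and 357 to 508 in ΔSE12313-b. Of 6 epithelial markers, KRT7, KRT8 and KRT18 passed 0.5 FPKM in every library and CDH1 was at 0. The sum of the epithelial markers was 361 to 363 FPKM in the control too, 1084 to 1210 in ΔE2 and 811 to 1069 in ΔSE12313-b, so it moved with the groups. None of 6 fibroblast and 6 leukocyte markers reached 0.5 FPKM in every library, with DCN, LUM and CD3E at 0 in all. Their sums were low. Fibroblast markers came to 5.01 to 6.41 FPKM in the control, 0.448 to 1.79 in ΔE2 and 0.666 to 1.47 in ΔSE12313-b. Most of that was ACTA2, with 6.27 and 4.91 FPKM in the controls and 0.313 to 1.61 in the clones. Leukocyte markers came to 0.320 to 0.532, 0.759 to 2.72 and 0.176 to 0.504. In ΔE2 most of that was LYZ (0.693, 2.67 and 1.605).

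Of the 9 genes, 7 were upregulated DEGs in ΔE2 and 0 were downregulated. RRM2B was the single gene below control, and voom on the recovered reads also called 0 downregulated in either deletion. The 7 were RRM1, RRM2, TYMS, TK1, DCTPP1, DCK and DTYMK. The same 7 were upregulated in ΔSE12313-b, again with 0 downregulated. For comparison, 11.2% of all genes tested were upregulated and 8.36% downregulated in ΔE2, and 14.7% and 7.83% in ΔSE12313-b. Whatever the size of the change, an adjusted p under 0.05 (limma, Benjamini-Hochberg) was reached by 8 of the 9 genes in ΔE2 and by 9 in ΔSE12313-b, against 54.1% and 59.4% of all genes. The median log2 fold change of the 9 genes was 2.11 in ΔE2 and 2.29 in ΔSE12313-b, beside 0.14 and 0.27 over all genes tested. In 8 of the 9 genes all 6 clones lay above both controls, which was so for 39.3% of all genes. In RRM2B all 6 lay below both, as in 18.8% of all genes. Both deletions were set against the same 2 control libraries, so an error in these enters both comparisons alike. In such bulk RNA a larger share of cells that express a gene and more of its RNA per cell cannot be told apart. From separate assays, the paper reported slower proliferation and a smaller share of S-phase cells in clones of both deletions than in control cells. How that relates to these RNA levels was not tested. The part of these marker sums in the differences was not tested.

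**Figure D1:**
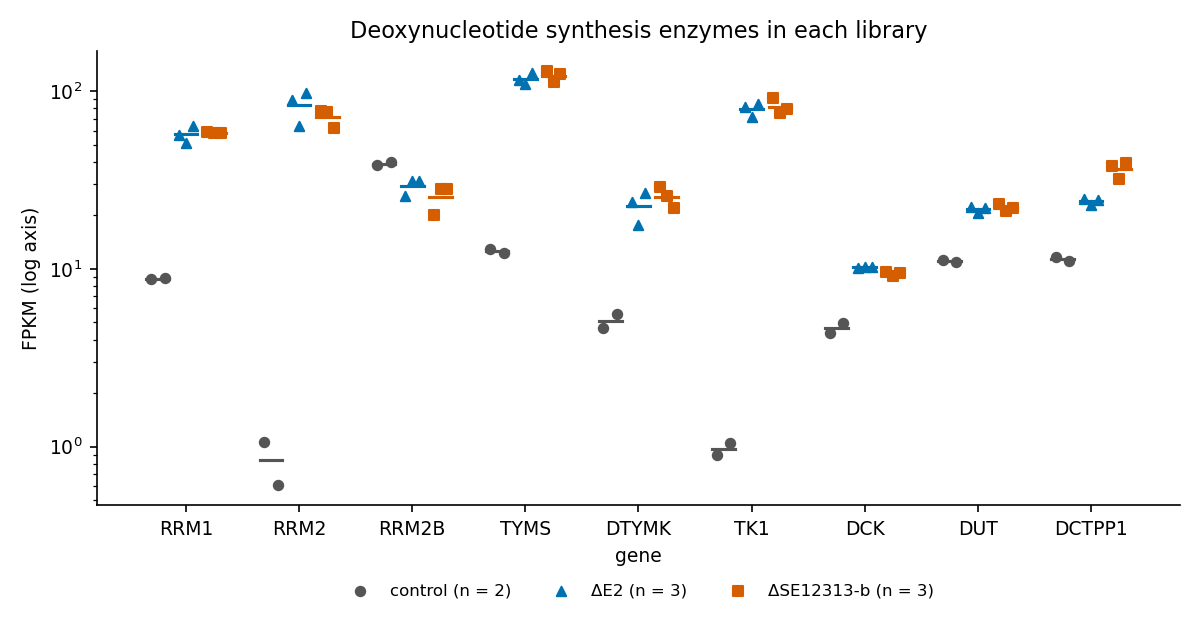
FPKM (log axis) of the 9 genes in each library, with the 2 controls as grey circles, the 3 ΔE2 clones as blue triangles, the 3 ΔSE12313-b clones as orange squares, and the mean of each group as a line. All clones sit above both controls in 8 genes and below both in RRM2B, with the widest gaps in RRM2 and TK1.

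The count of upregulated genes depended to some degree on how libraries were scaled. As deposited, 57.2% of the DEGs in ΔE2 were upregulated (1544 against 1153 downregulated) and 65.3% in ΔSE12313-b (2032 against 1080). With each library centred on its median log2 ratio to the mean library, 44.4% (1170 against 1464) and 43.3% (1201 against 1570) were upregulated. Then 5 of the 9 genes were upregulated in ΔE2, namely RRM1, RRM2, TYMS, TK1 and DTYMK, and 6 in ΔSE12313-b, where DCTPP1 joined them. Quantile normalization gave 1309 up and 1385 down in ΔE2, and 1400 up and 1398 down in ΔSE12313-b. Under it the same 5 and 6 of the enzymes were upregulated, and RRM2B became a downregulated DEG in ΔSE12313-b, with a log2 fold change of -1.11.

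Ribonucleotide reductase held RRM2, whose fold change was matched among the 9 genes only by that of TK1, and also the one gene that was lower in the clones, RRM2B. RRM2 encodes the small subunit that carries the radical in proliferating cells, and its kept transcript (NM_001034) lies at chr2:10262863-10271546 on the plus strand (hg19, 2p25.1). Its FPKM was 1.07 and 0.611 in the controls, from 44 and 24 reads. The ΔE2 clones had 89.6, 63.4 and 98.3, and for ΔSE12313-b it was 77.1, 76.3 and 62.1. The lowest clone was thus 58.3-fold above the highest control. The mean rose 99.95-fold in ΔE2, from 0.838 ± 0.321 (SD, n = 2) to 83.8 ± 18.1 (SD, n = 3), and 85.7-fold in ΔSE12313-b, to 71.8 ± 8.44 (SD, n = 3). The log2 fold change was 6.50 (standard error 0.25, limma adjusted p = 8.23e-07 after Benjamini-Hochberg adjustment) in ΔE2 and 6.30 (standard error 0.25, limma adjusted p = 8.98e-07) in ΔSE12313-b. The few control reads make its size less certain than its direction. Without control replicate 1 it was 6.86 and 6.65, without control replicate 2 it was 6.15 and 5.94, and with a pseudocount of 1 it was 5.51 and 5.31. In the controls RRM2 ranked above only 10.6% of all genes tested, and in ΔE2 it ranked above 95.8%.

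RRM1 encodes the large subunit, which holds the catalytic site and the sites that regulate it (NM_001033, chr11:4115915-4160155, plus strand, 11p15.4). It had an FPKM of 8.74 and 8.86 in the controls. Clones with the E2 deletion were at 56.6, 51.1 and 63.9, those with the other deletion at 59.2, 58.0 and 57.9. No clone came near a control, and the ΔSE12313-b clones differed from each other by no more than 1.02-fold. RRM1 rose 6.50-fold in ΔE2 (log2 fold change 2.68, standard error 0.09, limma adjusted p = 5.80e-07) and 6.64-fold in ΔSE12313-b (2.72, standard error 0.09, limma adjusted p = 5.31e-07).

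RRM2B encodes the small subunit that p53 induces (NM_001172477, chr8:103216729-103251059, minus strand, 8q22.3). It was the most abundant of the 9 transcripts in the controls, at 38.4 and 39.9 FPKM. The ΔE2 clones had 25.6, 31.0 and 31.4 FPKM, and the ΔSE12313-b clones 20.2, 28.3 and 28.1. All 6 clones were lower than both controls, by a smaller factor than any of the other 8 genes was higher. The control mean was 1.33-fold that of the ΔE2 clones, which gave a log2 fold change of -0.42 (standard error 0.16, 95% interval -0.79 to -0.05) that did not pass the adjustment over all genes (limma adjusted p = 0.0551). In ΔSE12313-b the factor was 1.53 and the log2 fold change -0.63 (standard error 0.16, limma adjusted p = 0.00977), which is under 2-fold and so no DEG. Both values lie further from the median of all genes than from 0. The call at an adjusted p under 0.05 in ΔSE12313-b was lost without control replicate 2 (limma adjusted p = 0.0640), and in ΔE2 it was gained without ΔSE12313-b replicate 1 (limma adjusted p = 0.0134) and with each library centred (log2 fold change -0.58, limma adjusted p = 0.0156).

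**Figure D2:**
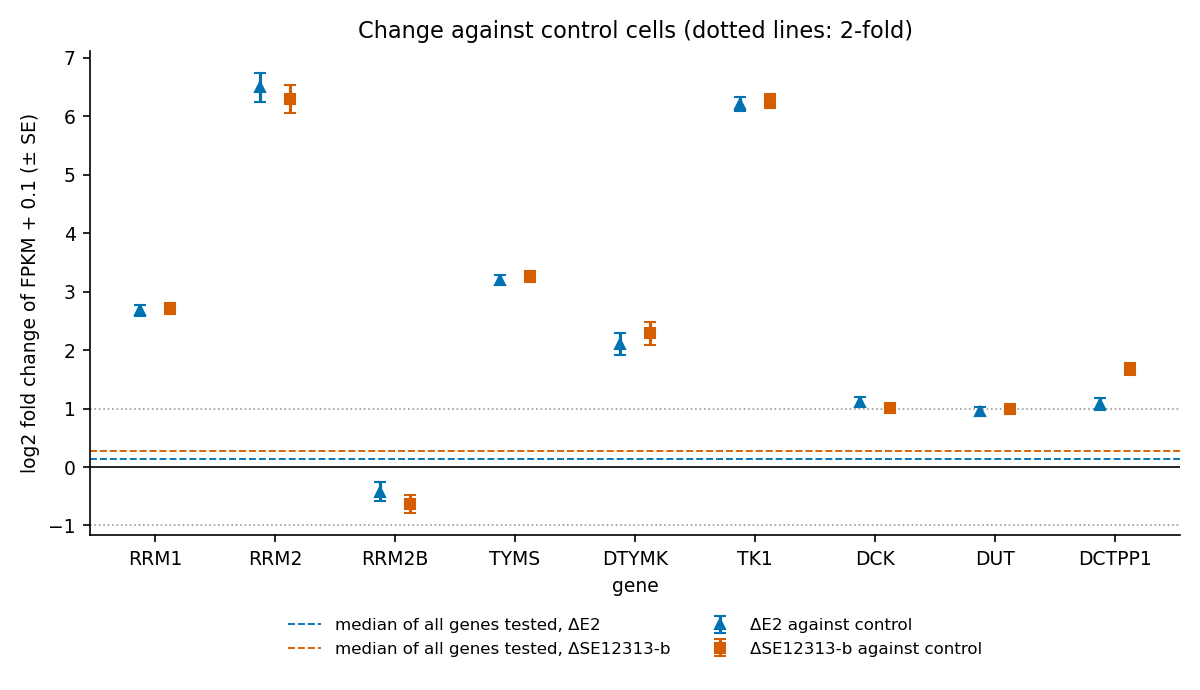
Log2 fold change of FPKM + 0.1 against control (points, with the standard error as bars) for the 9 genes in ΔE2 (blue triangles) and ΔSE12313-b (orange squares). Dashed lines mark the median of all genes tested (0.14 and 0.27) and dotted lines a 2-fold change. RRM2 and TK1 stand above 6, RRM2B alone is below 0, and DCK and DUT lie at the 2-fold line.

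The makeup of ribonucleotide reductase transcripts was set apart by these changes, with no overlap between clones and control. RRM2B made up 97.3% and 98.5% of the FPKM of both small subunits in the controls. That share was 22.3%, 32.8% and 24.2% among ΔE2 clones, while ΔSE12313-b clones had 20.7%, 27.1% and 31.1%. RRM2 transcripts per RRM1 transcript went from 0.122 and 0.0690 in the controls to 1.58, 1.24 and 1.54 in ΔE2 and 1.30, 1.31 and 1.07 in ΔSE12313-b. An exact permutation test over libraries (two-sided, 6 clones against 2 controls) gave p = 0.0714 for each, which is the smallest p this design allows and so cannot pass 0.05, and the Benjamini-Hochberg adjusted value over the 3 ratios tested was 0.0714 as well. Between the deletions the same exact test, whose smallest p is 0.1, gave 1 for the share of RRM2B and 0.3 for RRM2 per RRM1 (adjusted 1 and 0.9). The summed FPKM of RRM2 and RRM2B was 39.5 and 40.5 in the controls, 94.5 to 129.6 in ΔE2 and 90.2 to 104.6 in ΔSE12313-b. All clones thus held more small subunit transcript in all than either control, by a smaller factor than for RRM2 alone.

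**Figure D3:**
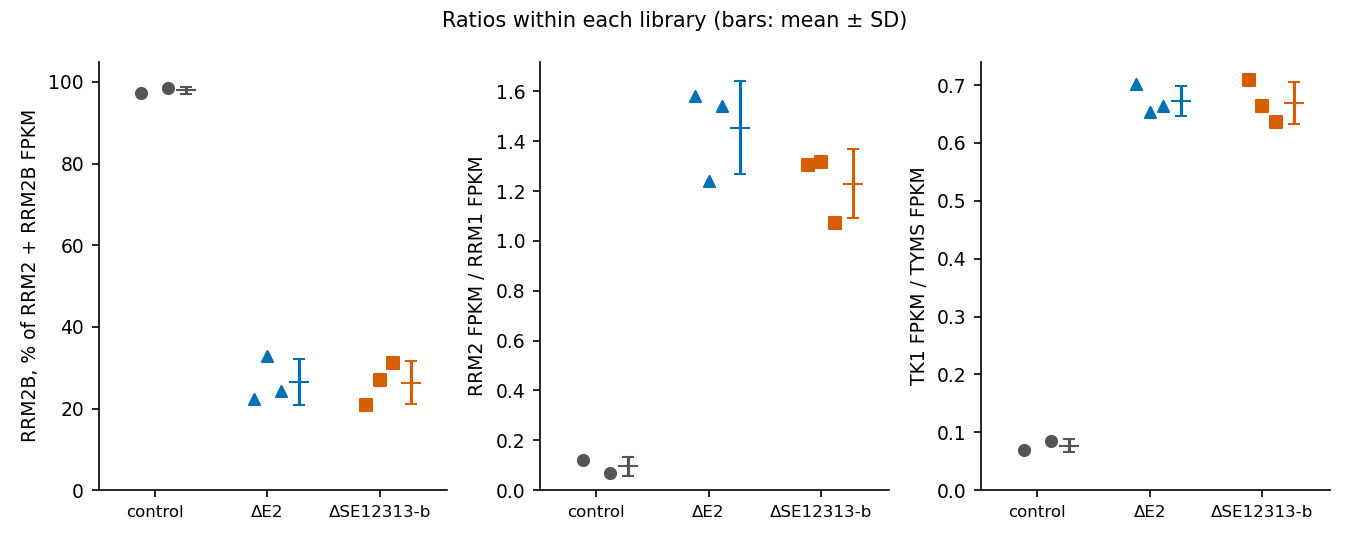
Ratios of FPKM within each library (points) with the mean ± SD of each group beside them: RRM2B as a percentage of RRM2 plus RRM2B, RRM2 per RRM1, and TK1 per TYMS. The controls and the 6 clones do not overlap in any panel, and the deletions overlap in each.

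Promoters of the genes that rose together were searched for the short words that are common in promoters of cell cycle genes, in the RefSeq window from 250 bases before to 50 after the gene start (build GRCh38.p14). Of the 9 genes, 8 had an entry in that table. The 250 bases before the start are shown for the subunits of ribonucleotide reductase that rose and for DTYMK, since these hold the CCAAT box, and capitals mark CCAAT and the cell cycle homology region (CHR, TTTGAA or TTCGAA, or the reverse complement). RRM2 (chr2:10122489-10122738, plus strand, G+C content 73.2%) is shown for its row of CCAAT boxes, RRM1 (chr11:4094435-4094684, plus strand, 56.4%) as its partner subunit, and DTYMK (chr2:241686816-241687065, minus strand, 73.2%) for a CCAAT box close to a CHR. All are written from 5′ to 3′ on the strand of the gene.
RRM2: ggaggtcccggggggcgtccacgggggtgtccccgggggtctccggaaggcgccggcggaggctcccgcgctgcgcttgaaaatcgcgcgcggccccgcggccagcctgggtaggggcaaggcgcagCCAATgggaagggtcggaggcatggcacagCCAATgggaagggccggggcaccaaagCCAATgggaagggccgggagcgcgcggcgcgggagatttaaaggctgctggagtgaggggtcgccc
RRM1: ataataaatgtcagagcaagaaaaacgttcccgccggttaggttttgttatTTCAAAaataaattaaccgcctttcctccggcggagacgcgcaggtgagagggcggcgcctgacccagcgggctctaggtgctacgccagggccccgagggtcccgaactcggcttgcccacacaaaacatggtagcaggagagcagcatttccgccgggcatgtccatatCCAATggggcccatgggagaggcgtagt
DTYMK: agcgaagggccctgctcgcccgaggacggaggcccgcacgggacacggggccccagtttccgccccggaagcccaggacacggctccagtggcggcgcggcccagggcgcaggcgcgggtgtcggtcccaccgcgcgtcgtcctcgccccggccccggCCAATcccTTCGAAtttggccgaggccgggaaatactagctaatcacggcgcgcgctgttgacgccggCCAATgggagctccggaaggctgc

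RRM2 holds 3 copies of CCAAT, whose first bases lie at -123, -93 and -66 from the start. RRM1 holds 1 at -28 and a CHR at -199, which reads TTCAAA on the strand of the gene. DTYMK holds 2, at -92 and -24, and a CHR at -84. With both strands searched, CCAAT occurred in 3 of the 8 promoters and in 34.6% of all 35116 promoters of the table, and a CHR in 2 of 8 and 16.4%. The E2F words TTTCCCGC, TTTGGCGC, TTTCGCGC and TTTGCCGC occurred in 2 of 8, TYMS (first base at -39) and DCK (at 22), and in 3.31% of all. The GC box GGGCGG occurred in 5 of 8 (RRM1, TK1, DCTPP1, DCK and DTYMK) and in 45.0% of all. The window of DUT held none of these words. Gene starts of these windows were not matched to the kept transcripts. RRM1, RRM2, TYMS, DCTPP1 and DUT list transcripts with different starts. Their windows may therefore not lie before the start of the kept transcript. The GC box of DCTPP1, at -187, may thus lie within it. The words found are matches of letters in one window, and binding was not measured.

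Thymidylate can be made by both of its routes, and the genes of both rose, that of the salvage route by the larger factor. TYMS, which methylates dUMP to dTMP (NM_001071, chr18:657604-673499, plus strand, 18p11.32), was at 13.0 and 12.3 FPKM in the controls. It reached 115.5, 109.7 and 127.1 with E2 deleted, and 129.2, 113.2 and 124.3 with SE12313-b deleted, and was the most abundant of the 9 transcripts in both deletions. The lowest clone stood 8.43-fold above the highest control. TYMS rose 9.29-fold in ΔE2 (log2 fold change 3.20, standard error 0.09, limma adjusted p = 2.72e-07) and 9.67-fold in ΔSE12313-b (3.26, standard error 0.09, limma adjusted p = 2.64e-07). Its transcript overlaps 3180 bp of a transcript of ENOSF1 and 737 bp of TYMSOS, both on the opposite strand. TYMSOS had at most 23 reads in any library, with 13 and 0 in the controls, and was a DEG in both deletions only when control replicate 1 was left out. That ENOSF1 transcript had an FPKM of 1.76 and 1.85 in the controls and of 2.64 to 3.51 in the clones, below TYMS in every library, and it is not given in the sources used here whether strand was kept in counting. Reads in these overlaps are therefore uncertain. The kept transcript of ENOSF1 had log2 fold changes of 0.75 in ΔE2 and 1.08 in ΔSE12313-b, a DEG in the latter. That call was lost with the longest transcript (0.65), a pseudocount of 1 (0.93), centring (0.80), quantile normalization (0.84) and voom (0.81).

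TK1, the cytosolic thymidine kinase (NM_003258, chr17:76170160-76183285, minus strand, 17q25.3), was at 0.894 and 1.05 FPKM in the controls, from 18 and 20 reads. Among ΔE2 clones its FPKM was 81.1, 71.6 and 84.4, from at least 1822 reads each, and ΔSE12313-b clones had 91.5, 75.2 and 79.1. The lowest clone was 68.5-fold above the highest control, the widest gap among the 9 genes. TK1 rose 81.5-fold in ΔE2 (log2 fold change 6.21, standard error 0.12, limma adjusted p = 8.95e-08) and 84.5-fold in ΔSE12313-b (6.26, standard error 0.12, limma adjusted p = 8.46e-08). With a pseudocount of 1 these log2 values were 5.34 and 5.39. Without control replicate 2 they were 6.31 and 6.36, above those of RRM2 (6.15 and 5.94), so TK1 and RRM2 cannot be ranked by fold change. There were 0.0687 and 0.0852 TK1 transcripts per TYMS transcript in the controls, 0.702, 0.653 and 0.664 in ΔE2 and 0.708, 0.664 and 0.636 in ΔSE12313-b. Clones and controls did not overlap (exact permutation p = 0.0714, two-sided, the smallest possible, and adjusted over the 3 ratios 0.0714), and between the deletions, whose ranges overlapped, the exact permutation test gave p = 1. DTYMK encodes thymidylate kinase, which takes the product of both routes to dTDP (NM_012145, chr2:242615157-242626383, minus strand, 2q37.3). It was at 4.65 and 5.58 FPKM in the controls, at 23.9, 17.5 and 26.6 in ΔE2 and at 28.8, 25.6 and 21.9 in ΔSE12313-b. The groups did not overlap, though the ΔE2 clones spread 1.52-fold among themselves. DTYMK rose 4.43-fold (log2 fold change 2.11, standard error 0.19, limma adjusted p = 7.06e-05) and 4.97-fold (2.29, standard error 0.19, limma adjusted p = 3.64e-05).

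Genes for deoxycytidine salvage and for removal of unwanted triphosphates were higher in all clones by 1.95-fold to 3.22-fold, and for DCK and DUT the count as DEGs turned on the threshold of 2-fold. DCK, which phosphorylates deoxycytidine and other nucleosides taken up from outside (NM_000788, chr4:71859265-71896629, plus strand, 4q13.3), was at 4.37 and 4.95 FPKM in the controls. It was at 10.1, 10.3 and 10.3 in ΔE2 and at 9.60, 9.15 and 9.53 in ΔSE12313-b. All clones lay above both controls and hardly differed from each other. DCK rose 2.19-fold in ΔE2 (log2 fold change 1.12, standard error 0.08, limma adjusted p = 2.69e-05) and 2.02-fold in ΔSE12313-b (1.00, standard error 0.08, limma adjusted p = 3.55e-05). The latter fell under 2-fold without control replicate 1 (0.92), without ΔSE12313-b replicate 1 (0.99) and without replicate 3 (0.996), while the adjusted p stayed under 0.05 in each of the 19 alternative fits.

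DUT encodes dUTPase, which keeps uracil out of DNA and supplies dUMP to TYMS (NM_001025249, chr15:48623621-48635570, plus strand, 15q21.1). Its FPKM was 11.2 and 10.9 in the controls, 22.2, 20.5 and 22.1 in ΔE2 and 23.2, 21.1 and 21.9 in ΔSE12313-b. The groups were well apart, yet the change of 1.95-fold in ΔE2 (log2 fold change 0.96, standard error 0.08, limma adjusted p = 3.72e-05) and of 1.996-fold in ΔSE12313-b (0.99, standard error 0.08, limma adjusted p = 2.43e-05) missed the threshold of 2. It passed in ΔSE12313-b without control replicate 1 (1.01) or without ΔSE12313-b replicate 2 (1.02). Over the 4 DUT transcripts listed the ratio of means was between 1.71 and 1.98 for ΔE2, and between 1.79 and 2.02 for ΔSE12313-b. RefSeq names 8 pseudogenes of DUT, 3 of RRM2 and 2 of TYMS, none of which is in the FPKM table, so some reads of these genes may have been split or lost.

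DCTPP1 encodes a pyrophosphatase that clears dCTP and its modified forms (NM_024096, chr16:30435019-30441373, minus strand, 16p11.2), and it was the only one of the 9 genes with an adjusted p under 0.05 between the deletions as the values were deposited. It was at 11.6 and 11.1 FPKM in the controls, 24.8, 22.8 and 24.4 in ΔE2 and 38.0, 32.0 and 39.6 in ΔSE12313-b. Each ΔSE12313-b clone was above each ΔE2 clone, and these above each control. DCTPP1 rose 2.12-fold in ΔE2 (log2 fold change 1.08, standard error 0.10, limma adjusted p = 8.63e-05) and 3.22-fold in ΔSE12313-b (1.67, standard error 0.10, limma adjusted p = 7.44e-06). With each library centred the change in ΔE2 was 0.92, under 2-fold.

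Compared directly, 0 of the 9 genes were DEGs between ΔE2 and ΔSE12313-b by limma, against 4.23% of all genes tested, and voom on the recovered reads called 0 as well. At an adjusted p under 0.05, whatever the size, 1 differed (DCTPP1), against 26.0% of all, and no further gene did at an unadjusted p under 0.05. The log2 difference of DCTPP1, ΔE2 minus ΔSE12313-b, was -0.60 (standard error 0.09, 95% interval -0.81 to -0.39, limma adjusted p = 0.00320), and its adjusted p stayed under 0.05 in all 19 alternative fits. DCTPP1 lies on 16p, and the 311 coding genes tested on that arm had a median log2 difference of -0.56, against -0.13 over all coding genes. Relative to all coding genes, the arm was at -0.45 in ΔE2 and at 0.02 in ΔSE12313-b against control. Its part in the difference of DCTPP1 was not tested. The adjusted p of the other 8 genes ranged from 0.297 to 0.791 (limma). Their 95% intervals exclude a 2-fold difference in every case. The narrowest was that of DUT, from -0.19 to 0.13, and the widest that of RRM2, from -0.30 to 0.71. The intervals for RRM1 (-0.23 to 0.16), TYMS (-0.24 to 0.13) and TK1 (-0.29 to 0.19) were also narrow beside changes of 2.68 to 6.26 against control. DCK (-0.06 to 0.29) lies on 4q, whose 264 coding genes had a median of 0.33 in the same comparison. With each library centred DCK differed by 0.24 (limma adjusted p = 0.0454) and with voom by 0.24 (limma adjusted p = 0.0473).

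**Figure D4:**
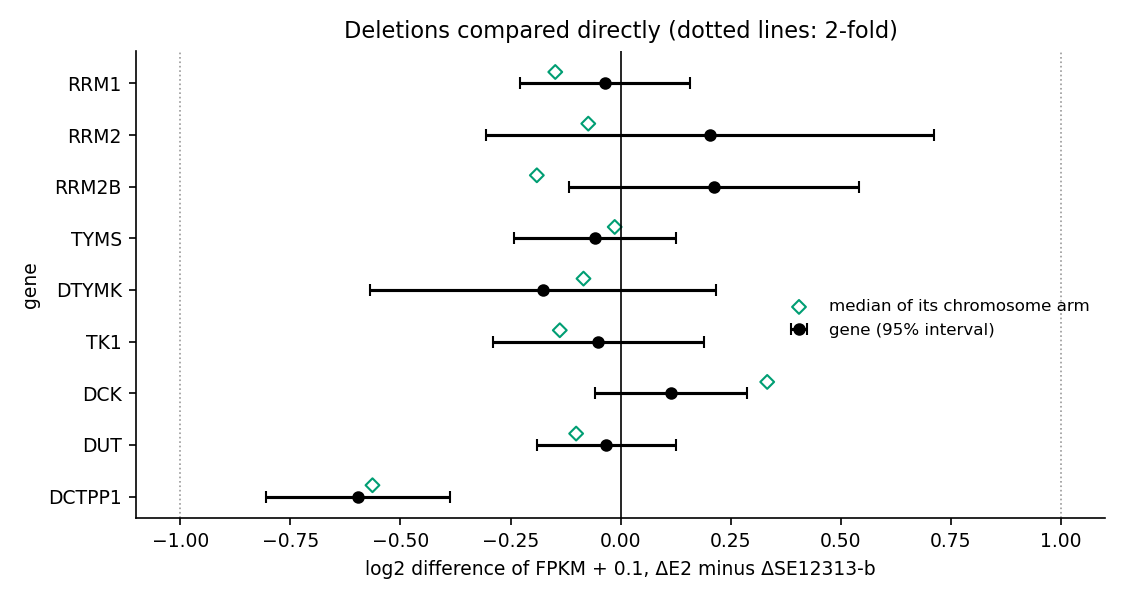
Log2 difference of FPKM + 0.1 between the deletions (ΔE2 minus ΔSE12313-b) for each gene, with its 95% interval (black), and the median of the coding genes on its chromosome arm (green diamonds). DCTPP1 alone has an interval that leaves out 0, and it lies beside the median of 16p.

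The order of the levels was not the same in the 3 groups. In the controls it ran from RRM2B through TYMS, DCTPP1, DUT, RRM1, DTYMK, DCK and TK1 to RRM2. The ranges of DCTPP1 and DUT, of DTYMK and DCK, and of TK1 and RRM2 overlapped there, so these neighbours cannot be ranked. In ΔE2 the order was TYMS, RRM2, TK1, RRM1, RRM2B, DCTPP1, DTYMK, DUT and DCK, where the range of RRM2 overlapped those of TK1 and RRM1, and that of DTYMK those of RRM2B, DCTPP1 and DUT. In ΔSE12313-b it was TYMS, TK1, RRM2, RRM1, DCTPP1, RRM2B, DTYMK, DUT and DCK, with overlaps between TK1 and RRM2 and among RRM2B, DTYMK and DUT. The 9 transcripts together came to 94.0 and 95.2 FPKM in the controls, to 398 to 488 in ΔE2 and to 439 to 477 in ΔSE12313-b.

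Within a deletion, the same clones often held the lowest or highest values of these genes. The matching shares over all genes were not counted, so whether this is particular to the enzymes was not tested. Among the 8 genes other than RRM2B, ΔE2 replicate 2 had the lowest value of its group in 7 and replicate 3 the highest in 6. In ΔSE12313-b, replicate 1 had the highest value in 7 of 8 and also the lowest RRM2B, and replicate 2 the lowest in 5. The largest spread between clones was that of RRM2 in ΔE2, 1.55-fold from lowest to highest, and the smallest that of DCK in ΔE2, 1.02-fold. Even without ΔE2 replicate 2, which stood apart in the transcriptome as well, 7 of the 9 genes were upregulated in ΔE2.

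The genes whose pattern over the 8 libraries was most like that of RRM2 were found by the root mean square difference of log2(FPKM + 0.1), each gene centred on its own mean. TK1 was closest (0.30), followed by HIST1H2AH (0.33), HIST1H3B (0.35), ESCO2 (0.37) and HIST1H2BM (0.39). The histone genes are near-identical copies, so the reads of each are uncertain, and ESCO2 had only 2 and 1 reads in the controls. Of the other enzymes, TYMS was in place 189, RRM1 in place 252 and DTYMK in place 361, and RRM2B was in place 11039. Closest to RRM2B were IL31RA (0.07), CCDC28A (0.08), ZDBF2 (0.11), LRRC27 (0.11) and FBXO17 (0.11), none of which was a DEG in either deletion as deposited, though CCDC28A (-1.06) and LRRC27 (-1.004) were in ΔSE12313-b with each library centred. Changes under 2-fold bring many genes close to such a pattern. The clones of 1 group share their deletion, and the controls may share a culture. No test was made of this likeness between genes.

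The neighbouring steps of the pathway were followed with lists that hold none of the 9 genes. Beside each list stand the shares over all genes tested. In ΔE2 these were 11.2% upregulated, 8.36% downregulated and 54.1% with an adjusted p under 0.05 (limma). In ΔSE12313-b they were 14.7%, 7.83% and 59.4%. TYMS consumes a folate cofactor that has to be restored. Of 18 folate cycle genes tested, 4 were upregulated and 2 downregulated in ΔE2, and 5 and 2 in ΔSE12313-b, with median log2 fold changes of 0.36 and 0.37. SHMT1, the cytosolic serine hydroxymethyltransferase that charges folate for TYMS, rose with log2 fold changes of 2.19 and 2.48. MTHFD1 (1.46 and 1.80), which interconverts cytosolic folates, and GGH (1.20 and 1.26), which trims folate polyglutamates, rose in both deletions as well, and SLC19A1, a folate carrier, in ΔSE12313-b (1.02), where it was under 2-fold without control replicate 2 (0.96) or ΔSE12313-b replicate 1 (0.92). ALDH1L2 (-1.65 and -2.92) and ALDH1L1 (-1.33 and -2.22), which oxidize 10-formyl folate, fell in both. With each library centred SLC19A1 (0.73) and GGH (0.97) were under 2-fold in ΔSE12313-b, and with quantile normalization GGH was so in both deletions (0.91 and 0.81). MTHFD1, GGH and SLC19A1 were picked after their values were seen.

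Of 11 genes of pyrimidine synthesis tested, 1 was upregulated and 1 downregulated in ΔE2, and 2 and 0 in ΔSE12313-b (medians 0.33 and 0.53). NME1, a nucleoside diphosphate kinase for the last step to triphosphates, rose in both (1.56 and 1.94). NME4 had log2 fold changes of 0.80 and 1.59 and was a DEG in ΔSE12313-b. NME3 had -1.40 and -0.29 and was a DEG in ΔE2. Both lie on 16p, as DCTPP1 does. Purine synthesis genes moved by small amounts. Of 18 tested, 0 were DEGs in ΔE2 and 4 were upregulated in ΔSE12313-b by limma (voom on the recovered reads called 0 in each), although 16 and 17 had an adjusted p under 0.05, as many as at an unadjusted p (medians 0.70 and 0.75). The 4 were IMPDH1 (0.91 and 1.17), IMPDH2 (0.69 and 1.08), PFAS (0.91 and 1.04) and ADSL (0.95 and 1.01). Leaving out ΔE2 replicate 2 gave 3 upregulated purine genes in ΔE2, and leaving out control replicate 2 gave 1. In ΔSE12313-b there were 2 without control replicate 1 or without ΔSE12313-b replicate 1, and 0 with each library centred.

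**Figure D5:**
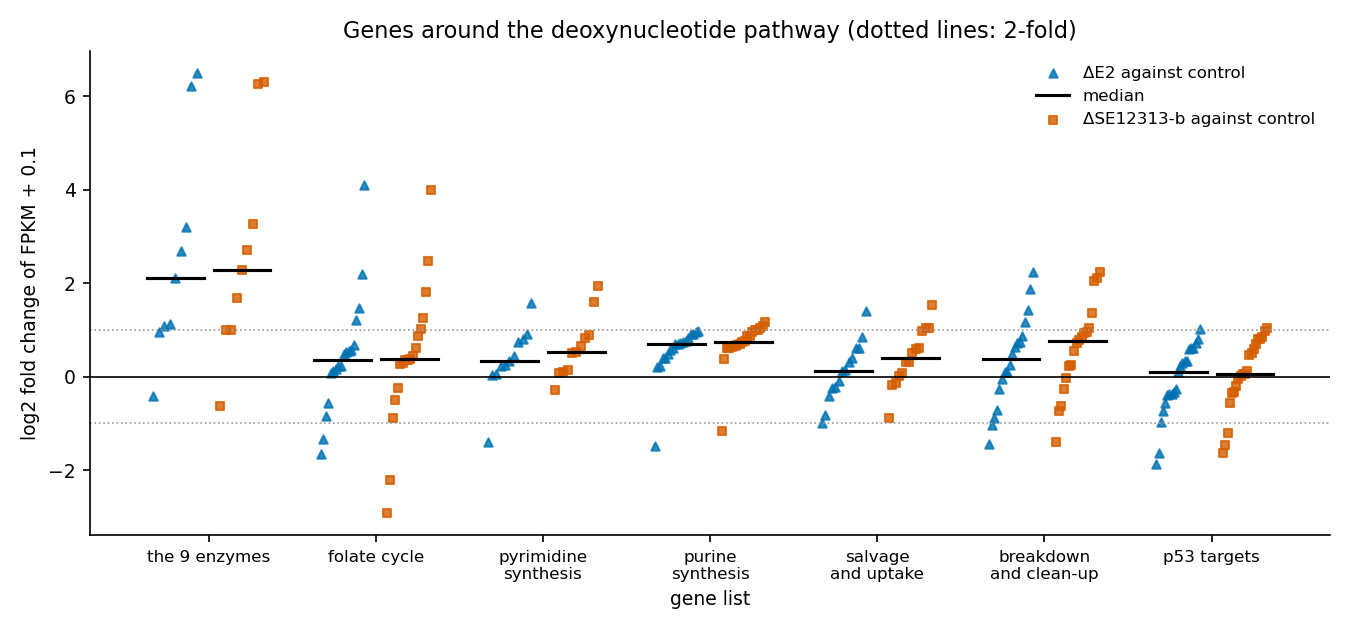
Log2 fold change of FPKM + 0.1 against control for each gene (points) of the 9 enzymes and of 6 lists around them, in ΔE2 (blue triangles) and ΔSE12313-b (orange squares), with the median of each as a black line and a 2-fold change as dotted lines. The medians of the 9 enzymes (2.11 and 2.29) stand above those of the lists (0.06 to 0.75).

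Of 14 other salvage enzymes and carriers tested, 1 was upregulated and 1 downregulated in ΔE2, and 3 and 0 in ΔSE12313-b (medians 0.13 and 0.40), while voom called 1 and 1 in each. TK2, the mitochondrial thymidine kinase, went from 9.69 ± 0.338 FPKM (SD, n = 2) to 4.85 ± 0.987 (SD, n = 3) with E2 deleted, and to 5.20 ± 0.166 (SD, n = 3) with SE12313-b deleted. Its log2 fold change of -1.002 was a DEG in ΔE2 (limma adjusted p = 0.00108, Benjamini-Hochberg) and that of -0.89 was not one in ΔSE12313-b. Leaving out control replicate 1 (-0.97), ΔE2 replicate 1 (-0.86) or ΔE2 replicate 3 (-0.997) ended the call in ΔE2. In ΔSE12313-b TK2 was a downregulated DEG with each library centred (-1.17), with quantile normalization (-1.21) and with voom (-1.18). HPRT1, which salvages hypoxanthine and guanine, was at 0.62 and 1.04, and SLC29A3, a nucleoside transporter of inner membranes, at 0.14 and 1.04, both DEGs in ΔSE12313-b. SLC29A3 was under 2-fold in ΔSE12313-b without control replicate 1 (0.97) or ΔSE12313-b replicate 2 (0.93), as was HPRT1 without ΔSE12313-b replicate 1 (0.98). Both also lost the call there with each library centred (HPRT1 0.75, SLC29A3 0.76), with quantile normalization (0.59 and 0.84) and with voom (0.75 and 0.78). In ΔE2 SLC29A3 was at -0.02 once libraries were centred.

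Enzymes that break down or clean up nucleotides were mixed. Of 18 tested, 3 were upregulated and 2 downregulated in ΔE2, and 5 and 1 in ΔSE12313-b (medians 0.37 and 0.75). NUDT1 (1.87 and 2.04), which removes oxidized nucleotides, rose in both, as did SAMHD1 (1.17 and 1.36), which degrades deoxynucleotide triphosphates. NT5E, an ecto-nucleotidase, fell in both (-1.45 and -1.41), and UPP1, uridine phosphorylase, fell in ΔE2 (-1.04, but -0.97 without ΔE2 replicate 1). NT5C2, a cytosolic nucleotidase, rose in ΔSE12313-b (1.05, but 0.98 without ΔSE12313-b replicate 1), and so did CDA, cytidine deaminase, which rested on 11, 5 and 7 reads per clone against 0 and 1 per control and lost its call without control replicate 1, ΔSE12313-b replicate 1 or ΔSE12313-b replicate 3 (limma adjusted p = 0.150, 0.0819 and 0.0540). ΔE2 clones held 6, 1 and 8 reads of CDA, which passed there only without ΔE2 replicate 2 (limma adjusted p = 0.0177). After centring, NT5C2 was under 2-fold in ΔSE12313-b (0.76) and UPP1 was a downregulated DEG there (-1.02). UPP1 and NT5C2 were picked after their values were seen. DCTD, which turns dCMP into dUMP for TYMS, was not a DEG (0.09 and -0.27), and its sign in ΔE2 turned with each library centred (-0.07).

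As RRM2B is known as a p53 target, 21 other targets of p53 were set beside it. In ΔE2, 1 was upregulated and 2 downregulated, and in ΔSE12313-b 1 and 3 (medians 0.10 and 0.06, close to those of all genes in ΔE2 and below them in ΔSE12313-b). An adjusted p under 0.05 (limma) was reached by 15 of the 21 in ΔE2 and 14 in ΔSE12313-b, against 54.1% and 59.4% of all genes. At an unadjusted p under 0.05 (limma) it was 18 and 15, of which 9 and 6 were lower than control. SESN2 (-1.87 and -1.63) and GDF15 (-1.63 and -1.47) fell in both deletions. CDKN1A, the inhibitor of cyclin-dependent kinases, had -0.96 in ΔE2 and fell in ΔSE12313-b (-1.20). It was a DEG in ΔE2 too with each library centred (-1.12), with quantile normalization (-1.34), with voom (-1.13) and without ΔE2 replicate 2 (-1.05). FAS rose in ΔE2 (1.01), a call lost without control replicate 2 (0.95) or ΔE2 replicate 2 (0.80) and with each library centred (0.85), and was at 0.97 in ΔSE12313-b, where leaving out control replicate 1 (1.03) or ΔSE12313-b replicates 1 or 3 (1.02 each) made it a DEG. FDXR, picked after its values were seen, rose in ΔSE12313-b (1.05, but 0.997 without control replicate 2 and 0.76 with each library centred).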

How the data were processed

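Ribosomal RNA-depleted total RNA of 8 EA.hy926 libraries was prepared with a directional kit and sequenced from a single end. Per the submitters' processing notes, reads were trimmed with Trim Galore 0.4.4, aligned with STAR 2.5.4b to GRCh37/hg19 and counted with featureCounts. The deposited values are FPKM for 65572 transcripts, and how the authors normalized them and whether strand was kept is not given in the sources used here. The authors called DEGs from counts, which were not used here.

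Each symbol was represented by its transcript of highest mean FPKM, which gave 27946 genes. The 13790 that reached 0.5 FPKM in 2 or more libraries were tested on log2(FPKM + 0.1) with limma 3.58.1 (R 4.3.3, variance trend, 3 groups, all 8 libraries in one fit, two-sided) and Benjamini-Hochberg adjustment. Fold changes are on that scale, which understates the change of low genes, and ratios of mean FPKM stand beside them. DEGs had an adjusted p under 0.05 and at least a 2-fold change. At least 99.97% of values came out as whole reads within 0.1 read once length and a depth per library were applied, and limma's voom on these reads with TMM library sizes was an alternative (2723, 2864 and 595 DEGs in ΔE2, in ΔSE12313-b and between them). Reads without molecular identifiers are not independent molecules, so counting noise covers sampling only. Ratios of FPKM were compared by exact permutation over libraries in Python 3.11.15 with scipy 1.17.1. Scripts were tested on simulated data. Other alternatives were the pseudocount, filters, centring, quantile normalization, a replicate block, leaving out each library, the variance model, the groups in the fit, the kept transcript and both thresholds.

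Members, lists and tests were chosen with earlier results of these data known. Named genes were all 9 enzymes, genes that overlap them, in each list the 4 DEGs with the largest mean change over both deletions plus direct partners of the enzymes (TK2, SAMHD1 and DCTD among them), and the 5 genes nearest to RRM2 and to RRM2B in pattern. Promoters came from RefSeq (GRCh38.p14), a build that was not mixed with the hg19 coordinates. CMPK2, AK4, NT5M and TYMP of the lists did not pass the filter. Some genes that this rule names are not reported here.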

Additional observations from a re-analysis of the deposited data

Results flagged for a closer look

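Among the genes named above, 14 had effects that differed between the deletions. The test was limma's of ΔE2 against ΔSE12313-b, with a Benjamini-Hochberg adjusted p under 0.05. Over all genes tested the share was 26.0%. Many of the named genes were picked for a change in either deletion or after their values were seen, which can favour such a difference. The count of 14 is therefore not comparable with that share. Of the 9 enzymes, DCTPP1 alone was among the 14 (log2 difference -0.60, limma adjusted p = 0.00320). Lower in ΔE2 as well were NME3 (-1.11, adjusted p = 0.00118) and NME4 (-0.79, adjusted p = 0.00109), which like DCTPP1 lie on 16p, where the median of coding genes was -0.56. The remaining genes that were lower in ΔE2 were SLC29A3 (-0.91, adjusted p = 0.00224), HPRT1 (-0.42, adjusted p = 0.00512), IMPDH2 (-0.39, adjusted p = 0.0123), NME1 (-0.38, adjusted p = 0.00814), MTHFD1 (-0.34, adjusted p = 0.0245), ENOSF1 (-0.33, adjusted p = 0.0150), FDXR (-0.32, adjusted p = 0.0123) and UPP1 (-0.31, adjusted p = 0.0351). Higher in ΔE2 than in ΔSE12313-b were ALDH1L2 (1.27, adjusted p = 0.00225), ALDH1L1 (0.89, adjusted p = 0.0330) and DCTD (0.36, adjusted p = 0.00672). No group held the 4 libraries that the search for a single outlying library needs.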

How the results depend on the processing

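RRM1, RRM2, TYMS, TK1 and DTYMK were upregulated DEGs in both deletions in each of the 19 alternative fits. DCTPP1 in ΔE2 fell under 2-fold with each library centred (0.92), with quantile normalization (0.82) and with voom (0.92). DCK fell under it in ΔE2 with a pseudocount of 1 (0.99), centring (0.96), quantile normalization (0.96) and voom (0.97). In ΔSE12313-b the same 4 settings gave 0.88, 0.72, 0.72 and 0.73 for DCK. RRM2B had an adjusted p under 0.05 (limma) in 6 of the 19 fits in ΔE2, with values from 0.00499 to 0.201, and in 18 of 19 in ΔSE12313-b. Without each library in turn, 7 enzymes were DEGs in ΔE2 every time, 6 to 8 in ΔSE12313-b and 0 between the deletions, and 2364 to 2880, 2767 to 3186 and 478 to 669 of all genes. The clones minus control differences ranged from -72.8 to -70.4 points for the share of RRM2B, from 1.20 to 1.30 for RRM2 per RRM1 and from 0.586 to 0.603 for TK1 per TYMS.

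A pseudocount of 1 left 1718, 2004 and 240 DEGs in ΔE2, in ΔSE12313-b and between them, in place of 2697, 3112 and 583. A threshold of 1.5-fold gave 5054, 5802 and 1631, and made DCTPP1 the 1 enzyme that was a DEG between the deletions. An adjusted p under 0.01 left 383 DEGs between the deletions. The small differences between the deletions changed sign under some settings. With each library centred they were 0.095 for RRM1, 0.072 for TYMS, 0.079 for TK1 and 0.098 for DUT, with quantile normalization 0.12, 0.063, 0.11 and 0.093, and with voom 0.084, 0.061, 0.069 and 0.088. Without each library in turn they ranged from -0.12 to 0.042 for RRM1, from -0.11 to 0.032 for TK1 and from -0.064 to 0.0059 for DUT, and were above 0 without ΔE2 replicate 2 (all 3) and without ΔSE12313-b replicate 1 (TK1 and DUT). In ΔE2 against control, SLC29A3 turned to -0.023 with centring and -0.024 with voom, and DCTD to -0.066 and -0.073 with these and to -0.22 with quantile normalization. TYMSOS ranged from -0.33 (without control replicate 2) to 3.39 (without control replicate 1) for ΔE2, and between -0.32 and 3.40 for ΔSE12313-b. The cause of these changes was not tested.

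Replicate numbers are shared between groups. Deviations of same-numbered libraries from their group means correlated between -0.080 and 0.107, and those of differently numbered libraries between -0.075 and 0.137. No pairing by number was seen, though 2 or 3 libraries per group are too few to settle this. With the replicate number as a block there were 2530, 2962 and 523 DEGs, of which 7, 6 and 0 were among the 9 enzymes, with DCK in ΔSE12313-b at 0.998. Only 2 control libraries, with 24 to 44 reads of RRM2 and 18 to 20 of TK1, limit how well the largest fold changes are known.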
